A study of Homo sapiens with 15 samples.

Results

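The Baseline methylomes of 5 HCT116 populations were compared, 3 single-cell-derived clones against 2 bulk populations. They are the 5 libraries of 15 in the series that were harvested on day 14 without doxycycline, and were chosen by that label alone. HCT116 is a human colorectal carcinoma cell line of epithelial type. All 5 populations carried a lentiviral, doxycycline-inducible short hairpin RNA (shRNA) under puromycin selection, directed against UHRF1 in the clones (Cl.3, Cl.6 and Cl.9) and against DNMT1 in the bulk populations (R1 and R2). Both targets act in maintenance, UHRF1 by binding hemimethylated DNA behind the replication fork and DNMT1 by methylating its new strand, and neither shRNA was induced at this stage. Per the study's methods the clones had been isolated by serial dilution and the uninduced cells received vehicle. Each clone is 1 cell's progeny, so the 3 clones are 3 draws from the parental cells, whereas R1 and R2 are 2 samples of 1 mixed population type. The kind of population, the shRNA and the count table cannot be told apart here. Every clone carried shUHRF1 and every bulk population carried shDNMT1, and the clones and the bulk populations were deposited in separate tables. Among the clones, Cl.3 and Cl.6 shared 1 table and Cl.9 had its own. What sets Cl.9 apart from the other clones therefore cannot be told apart from its table.

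In mammalian cells a cytosine followed by guanine (CpG) is methylated or not on each DNA copy, and the state is inherited through division with some error. Cancer cells hold long partially methylated domains (PMDs), which lose methylation mostly at CpGs that stand far from other CpGs, and highly methylated domains (HMDs) between them. In a mixed population the level at a CpG is an average over many cells, whereas in a clone it reflects the state of the founding cell and the changes made since.

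The assay was whole-genome bisulfite sequencing, which converts unmethylated C and leaves methylated C to be read as such. The methylation level (mC) is the share of methylated reads. The 5 libraries held between 327205165 and 583447252 reads at the 29175448 CpGs of chromosomes 1 to 22 and X, with a median of 11 to 20 reads per CpG and 5 or more reads at 81.0% to 87.7% of CpGs. The chi-square of the counts of R1 and R2 per 100 kb window averaged 3.98, and that of pairs of clones averaged between 40.5 and 181. CpGs on the same read share its state, so this value has no fixed expectation and does not by itself show how far R1 and R2 are separate samples. Cl.6 stood apart at CpGs of the mitochondrial genome, where 2.50% of reads were methylated, against 0.425% in Cl.3, 0.375% in Cl.9, 0.295% in R1 and 0.287% in R2. Bisulfite conversion rates of these libraries are not given in the sources used here, and the part of incomplete conversion in the levels of Cl.6 at weakly methylated CpGs was not tested. Of promoters of blood marker genes, 8 of 9 had a mean level of 80% or more over the 5 libraries and none was under 20%, and of fibroblast marker promoters 7 of 8 were at 80% or more. Of 5 neural marker promoters 3 were at 80% or more. The others were SNAP25, at 55.0%, 59.9% and 55.7% in the clones against 37.6% and 59.8% in the bulk cells, and SYN1, at 39.6%, 26.1% and 20.8% against 27.7% and 26.1%. Among 18 colon epithelium markers 3 were under 20% and 6 at 80% or more.

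The clones and the bulk populations differed in total methylation by less than the spread among the clones. The level over all reads was 74.9%, 76.5% and 71.7% in Cl.3, Cl.6 and Cl.9 against 73.7% in both R1 and R2. The clones lay on both sides of the bulk populations, which nearly coincided. The means were 74.4% ± 2.45 (SD, n = 3) and 73.7% ± 0.0597 (SD, n = 2), a difference of 0.670 percentage points (exact two-sided permutation p = 0.8). It depended on single clones, at 0.406 points without Cl.3, -0.401 without Cl.6 and 2.01 without Cl.9. With 3 libraries against 2 the smallest p that this test can give is 0.2, so it cannot pass 0.05 for any single value. On every chromosome from 1 to 22 and on X the bulk populations lay between the lowest clone, Cl.9, and the highest, Cl.6.

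The same held at low-density CpGs, whose nearest CpG is at least 20 bp away, and at high-density CpGs. Among CpGs with 5 or more reads in all 5 libraries, low-density CpGs were at 73.1%, 74.1% and 70.5% in the clones against 72.8% in R1 and in R2 (exact permutation p = 1). High-density CpGs were at 79.2%, 79.8% and 77.4% in the clones against 78.5% in both bulk populations (exact permutation p = 0.8). Solo-WCGW CpGs, which have no other CpG within 35 bp and A or T on either side and which lose methylation most readily in dividing cells, were at 61.7%, 63.5% and 58.9% in the clones against 61.6% and 61.7% in R1 and R2 (exact permutation p = 1). The order of the clones was the same in all 3 classes, with Cl.6 highest and Cl.9 lowest.

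What differed was how the methylation was spread over single CpGs. Each CpG with at least 10 reads in all 5 libraries was thinned to 10 reads, which left 13372584 CpGs at equal depth, and was called unmethylated at up to 0.2, methylated from 0.8 and intermediate in between. Intermediate CpGs made up 13.1%, 13.3% and 14.1% in Cl.3, Cl.6 and Cl.9 against 15.5% in R1 and in R2. All clones lay below both bulk populations, by 1.99 points on average (13.5% ± 0.544, SD, n = 3, against 15.5% ± 0.0111, SD, n = 2, exact permutation p = 0.2, the smallest possible). Unmethylated CpGs were more frequent in every clone, at 17.2%, 16.8% and 18.7% against 16.2% in both bulk populations (exact permutation p = 0.2). Methylated CpGs made up 69.7%, 69.9% and 67.2% against 68.3% and 68.3%, and here the groups overlapped (exact permutation p = 0.6). The mean share of intermediate CpGs was 15.5% in the clones against 18.1% in the bulk cells at low density, and 9.85% against 10.9% at high density.

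The shape of the distribution differed as well. On chromosomes 1 to 22 the share of CpGs with 5 of 10 reads methylated was a local peak in each clone, at 3.12%, 3.02% and 3.06% in Cl.3, Cl.6 and Cl.9, against 2.07%, 2.17% and 2.46% for 3 of 10 and 2.33%, 2.58% and 2.85% for 7 of 10. In R1 and R2 there was no such peak, and the shares rose from 2.81% at 3 of 10 through 2.96% at 5 of 10 to 3.74% and 3.72% at 7 of 10. So on these chromosomes the CpGs that were fewer in the clones were those off the centre. With a narrower band of 4 to 6 of 10 reads, over all thinned CpGs with chromosome X included, the clones were lower by 0.270 points (8.69%, 8.55% and 8.81% against 8.95% and 8.95%).

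**Figure D1:**
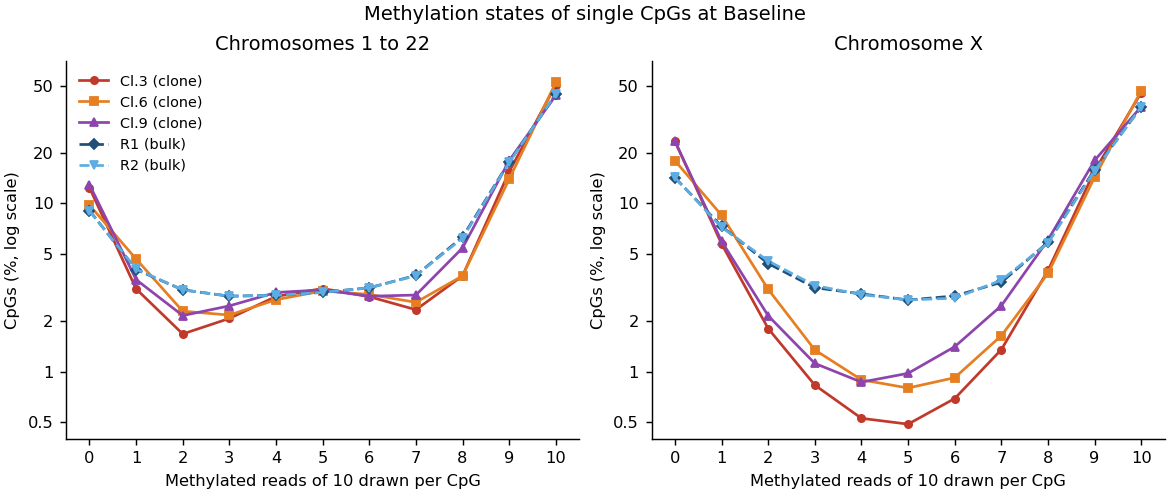
Share of CpGs (%, log axis) by the number of methylated reads among 10 drawn per CpG, on chromosomes 1 to 22 (left, 13323232 CpGs) and on chromosome X (right, 49352 CpGs), with solid lines for the clones and dashed lines for the bulk populations. On chromosomes 1 to 22 the clones dip on either side of a small peak at 5 of 10, and on chromosome X the clones run below the bulk populations from 2 to 7 of 10 with no peak in the middle.

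The contrast was larger on chromosome X than on the pooled chromosomes 1 to 22. Reads per CpG on X were 0.429 to 0.449 of those on chromosomes 1 to 22 in all 5 libraries. Intermediate CpGs made up 3.90%, 5.60% and 6.84% of X CpGs in Cl.3, Cl.6 and Cl.9 against 14.9% and 15.0% in R1 and R2. The groups were far from overlapping, and the mean difference was 9.54 points (5.45% ± 1.48, SD, n = 3, against 15.0% ± 0.0587, SD, n = 2, exact permutation p = 0.2). Here 5 of 10 reads were methylated at 0.488%, 0.80% and 0.979% of CpGs in the clones, near the lowest point of each curve, and at 2.67% in both bulk populations. The X comparison rests on 49352 CpGs, 3.73% of those on the chromosome, because few reached 10 reads. Thinned to 5 reads and counting 2 or 3 of 5 as intermediate, 488005 X CpGs gave 3.54%, 4.73% and 5.81% in the clones against 11.6% and 11.5% in the bulk populations, and chromosomes 1 to 22 gave 9.18%, 9.38% and 10.2% against 11.2% and 11.2%.

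By the share of CpGs that differed by 0.3 or more, each pair of clones differed more than any clone and bulk population. Between 2 clones 13.7%, 15.9% and 16.2% of CpGs differed by 0.3 or more at equal depth, the lowest for Cl.3 and Cl.6. Between a clone and a bulk population 11.6% to 13.4% did so over the 6 pairs. Between R1 and R2 it was 6.07%, a value that includes the sampling of 10 reads. For differences of 0.5 or more the means were 6.73%, 3.79% and 0.637%. The order depended on the measure. By the mean absolute difference Cl.3 and Cl.6 differed by 10.6 points, less than Cl.9 and R1 at 10.9. The chi-square per 100 kb window of Cl.3 and Cl.6 was also below that of Cl.6 or Cl.9 and either bulk population, at 58.4 to 99.5. A chi-square of counts grows with read depth, and Cl.3 and Cl.6 had the fewest reads, so it is not a like measure. These pairs share libraries and are not independent, so no test was made.

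Where the clones disagreed, the bulk populations sat near the share of clones that were methylated. At the 1584084 CpGs unmethylated in all 3 clones the mean level of R1 was 6.35%. It was 34.8% at the 80606 CpGs methylated in 1 clone and unmethylated in the other 2. At the 118806 CpGs methylated in 2 clones and unmethylated in the other it was 69.4%, and at the 8085764 methylated in all 3 it was 95.6%. R2 gave 6.35%, 34.8%, 69.5% and 95.7%. Of the CpGs with 1 methylated clone 55.8% were intermediate in R1, and of those with 3 only 2.38%. The level of R1 varied with the clone that stood alone. CpGs unmethylated in Cl.9 alone numbered 71957 and had a mean of 71.4% in R1. Those unmethylated in Cl.3 alone numbered 26247, with a mean of 64.6%, and in Cl.6 alone 20602, with a mean of 68.8%. The value for 2 methylated clones therefore rested mostly on CpGs at which Cl.9 stood alone.

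The reverse selection, on the bulk populations, gave a related picture. At the 576232 CpGs with 4 to 6 of 10 methylated reads in both R1 and R2, 57.7%, 57.8% and 53.3% were intermediate in Cl.3, Cl.6 and Cl.9. The rest were split, with 19.2%, 17.96% and 26.05% unmethylated and 23.1%, 24.3% and 20.6% methylated. All 3 clones were intermediate at 21.7% of these CpGs and none at 11.2%. At the 7585806 CpGs with 9 or 10 methylated reads in both bulk populations, 97.8%, 97.8% and 95.7% were methylated in the clones.

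**Figure D2:**
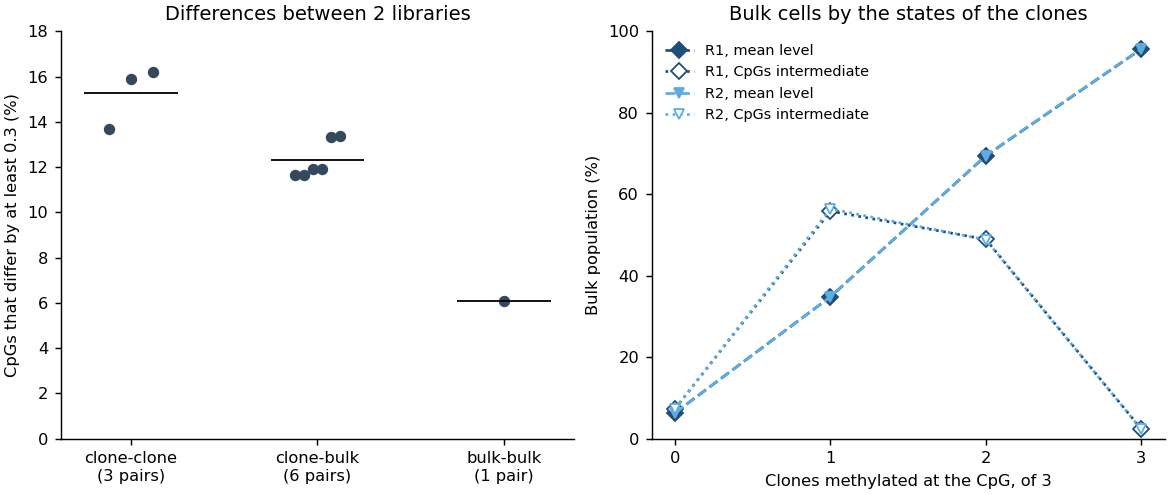
Left, share of 13372584 CpGs (%) whose levels differ by at least 0.3 between 2 libraries thinned to 10 reads, with 1 point per pair and a line at the mean of each kind of pair. Right, mean level (filled) and share of intermediate CpGs (open) in R1 and R2 (%) against the number of clones, of 3, methylated at the CpG. Clone-clone pairs lie above clone-bulk pairs and the bulk pair is lowest at 6.07%, and the bulk level climbs from 6.35% to 95.6% with the number of methylated clones.

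A smaller set of CpGs set all 3 clones apart from both bulk populations. The clones and the bulk populations did not overlap, and their means differed by 0.3 or more, at 116645 CpGs where the clones were higher (0.872% of CpGs) and at 126344 where they were lower (0.945%). At the former the clones averaged 78.6%, 78.8% and 77.2% and R1 and R2 38.8%, and at the latter the clones averaged 26.2%, 27.3% and 23.6% and R1 and R2 64.9%. These levels describe how the CpGs were chosen. Low-density CpGs made up 74.0% of the higher and 77.4% of the lower set against 64.1% of all thinned CpGs, and solo-WCGW CpGs 21.2% and 22.1% against 15.7%. PMDs called in all 5 libraries held 28.3% and 35.3% of the higher and the lower set against 13.7% of all thinned CpGs. CpGs with 4 to 6 of 10 methylated reads in both bulk populations had a like make-up, with 72.1% to 76.5% at low density and 29.4% to 36.1% in these PMDs by the number of intermediate clones.

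The deviation of a clone from the bulk mean was shared between neighbouring CpGs. The correlation across pairs of CpGs under 10 bp apart, which often lie on the same reads, was 0.348, 0.373 and 0.425 for Cl.3, Cl.6 and Cl.9, against 0.134 for R1 minus R2. From 200 bp to 1 kb (1000 bp) it was 0.0283, 0.0559 and 0.0618 against 0.00105. From 20000 to 100000 bp it was still 0.0224, 0.0417 and 0.0511, against -0.000321 for R1 minus R2. The CpGs of 1 library are not independent replicates, the clones were all set against the same bulk mean, and R1 minus R2 carries more sampling noise, so these values are a description.

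The domain calls of the authors summed to more HMD and less PMD length in the clones. The median length of single domains did not separate the groups, at 33297, 25366 and 25283 bp for PMDs in the clones against 25572 and 27833 bp in the bulk populations. HMDs covered 1611 Mb in Cl.3, 1629.7 Mb in Cl.6 and 1635 Mb in Cl.9, and 1517 Mb in R1 and 1533 Mb in R2. Every clone lay above both bulk populations, by 100.1 Mb on average (exact permutation p = 0.2). PMDs covered 995, 1113 and 589 Mb in the clones against 1281 and 1260.0 Mb in R1 and R2, a mean difference of 372 Mb downwards (exact permutation p = 0.2). Without Cl.9 the PMD difference was -217 Mb. UMRs and LMRs can lie inside PMDs, and with each base pair counted once the PMD length was 586, 623 and 394 Mb against 727 and 704 Mb, a difference of -181 Mb. All classes together covered 91.1%, 92.6% and 88.5% of the genome in Cl.3, Cl.6 and Cl.9, against 93.7% and 93.6% in R1 and R2. More of the genome was thus in no class in each clone, and the lower PMD length was not all matched by HMD length. Cl.9, with the least PMD length, also had the most of unmethylated regions (UMRs), 438 Mb against 312 and 313 Mb in the other clones and 351 and 348 Mb in the bulk populations. Of its UMR length 22.7% lay inside PMDs, against 67.8% for Cl.3, 86.4% for Cl.6, 92.2% for R1 and 91.9% for R2. Every clone lay below both bulk populations, so the division into classes was not alike between the groups whose PMD lengths are compared, nor among the clones. Low-methylated regions (LMRs) summed to 252, 242 and 216 Mb in the clones against 245 and 250.2 Mb in the bulk populations. Reads within LMRs were methylated at 22.002%, 23.1% and 21.4% in the clones against 24.0% in R1 and R2, below both in each clone (exact permutation p = 0.2).

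**Figure D3:**
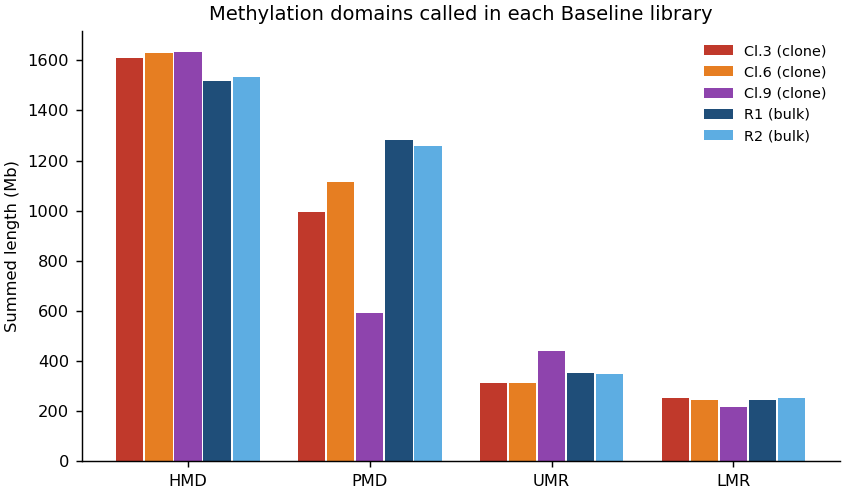
Summed length (Mb) of highly methylated domains (HMD), partially methylated domains (PMD), unmethylated regions (UMR) and low-methylated regions (LMR) called in each Baseline library, 1 bar per library. HMD bars of the clones (1611 to 1635 Mb) stand above those of R1 and R2 (1517 and 1533 Mb), and PMD bars of the clones stand below, most of all Cl.9 at 589 Mb.

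HMD positions were largely shared, and how far PMD positions were shared depended on Cl.9. HMDs of all 5 libraries shared 1444 Mb, 82.8% of their union, and PMDs of all 5 shared 492 Mb, 36.5% of theirs. Without Cl.9 the PMDs of the other 4 shared 915 Mb, 68.6% of their union, whereas leaving out any other library gave 37.1% to 39.0%. Of PMD length in Cl.3, Cl.6 and Cl.9, 98.1%, 98.2% and 96.8% lay in PMDs of R1, whereas 76.2%, 85.3% and 44.5% of the PMD length of R1 lay in theirs. So the PMDs of a clone were mostly a subset of those of the bulk cells. Regions called HMD in the 3 clones and PMD in both bulk populations summed to 29.1 Mb, and the opposite pattern summed to 0.383 Mb. In the former the levels were 85.4%, 86.8% and 83.2% in the clones against 82.6% in both R1 and R2. These levels were used in the calls and are close to the minimum mean of 0.8 for an HMD. The share of intermediate CpGs within PMDs common to all 5 was 29.6%, 31.1% and 31.5% in the clones against 35.8% in R1 and R2, and within common HMDs 5.45%, 5.15% and 6.91% against 5.97% and 5.95%.

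Windows of 100 kb placed the differences along the genome. Of 28485 windows tested with edgeR's quasi-likelihood test on methylated and unmethylated reads, 169 were called higher in the clones at an adjusted p under 0.05 (0.593%) and none lower (0%). At an unadjusted p under 0.05 there were 698 higher and 66 lower. Windows whose 3 clones lay above both bulk populations numbered 1214 (4.26%) and those below 1340 (4.7%). That split rested on single clones, with 16834 above and 1706 below without Cl.9 and 1359 above and 5324 below without Cl.6. All 3 clones stood above both bulk populations in 139 of the 169 called windows. In the other 30 a clone reached down to the bulk level, in 27 of them Cl.3. No window was called when R1 or R2 was left out. The lone bulk library is then assumed to vary like the clones. The median log2 ratio of the 169 windows was 1.22 without R1 and 1.23 without R2, against 1.23 with all 5 libraries. R1 and R2 nearly coincided, so this ratio could hardly move, and the calls rested on counting both libraries. Without Cl.9 there were 86 called higher and 8 lower. limma called 177, with 824 at an unadjusted p under 0.05, and once each library was centred on its median it called 3, with 5264 at an unadjusted p under 0.05. In windows of 20 kb the same edgeR test called none of 140559, with 2723 at an unadjusted p under 0.05. The medians of log2 ratios were 2.12, 2.27 and 1.80 in the clones against 1.95 and 1.94 in the bulk populations.

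The called windows lay almost wholly in PMDs of the bulk cells and in part in those of the clones. Of their CpGs 98.5% were in PMDs of R1 and 98.7% in PMDs of R2, against 34.5% and 33.6% over all windows tested. In Cl.3, Cl.6 and Cl.9 the shares were 53.8%, 63.4% and 36.2%, against 26.3%, 29.8% and 16.03% over all windows tested, so that called windows were richer in PMD in every library. A smaller PMD share in a clone does not by itself show a higher level there, as in the chromosome 1 run given below. The PMDs were called on the same reads as the windows. A window can be called much higher in the clones only where the bulk cells are not fully methylated, so these shares partly restate the choice. Windows in PMDs common to all 5 libraries were not in general higher in the clones. Of 1789 windows with at least 80% of CpGs in such PMDs, 9 were called (0.503%). All clones lay above both bulk populations in 114 of the 1789 (6.37%) and below in 195 (10.9%). Of 11155 windows with at least 80% of CpGs in common HMDs 0 were called, and 350 (3.14%) lay above and 21 (0.188%) below. The other 160 called windows lay among the remaining 15541 (1.03%). The called windows formed 61 runs of adjacent windows, 33 of them with 2 windows or more. Chromosome 6 held the most, 50 or 2.96% of its windows, and 9 chromosomes held none. They were poor in CpGs, with a mean of 585 per window against 986 over all windows tested. Median levels over the called windows were 78.0%, 79.9% and 78.2% in Cl.3, Cl.6 and Cl.9 against 56.2% and 56.7% in R1 and R2. Read depth in these windows, relative to the whole library, differed among the clones, with medians of 1.14, 1.06 and 0.971 in Cl.3, Cl.6 and Cl.9 against 1.11 and 1.10 in R1 and R2. Cl.9 was below both bulk populations in all 169 windows and Cl.6 in 148, whereas Cl.3 was above both in 108. The part of depth in the calls was not tested.

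Of the 3 longest runs, of 10 windows each, that on chr3:6200001-7200000 (hg38) ran into GRM7, which encodes a metabotropic glutamate receptor. Its level was 80.7%, 80.2% and 69.2% in Cl.3, Cl.6 and Cl.9 against 53.6% and 53.8% in R1 and R2. Within it the window chr3:6900001-7000000 had the widest gap of all called windows, 79.5%, 78.0% and 63.3% against 45.5% and 46.8%, or 27.5 points (log2 ratio 1.75, edgeR adjusted p = 5.0e-07). The run on chr5:117600001-118600000, which holds no protein-coding gene, was at 85.0%, 87.5% and 80.4% in the clones against 65.7% and 65.6% in the bulk cells. PMDs covered 98.6% and 100% of its CpGs in R1 and R2 but 12.6%, 0% and 18.8% in the clones. In the chromosome 3 run the clones kept more, at 34.96%, 61.1% and 82.3% against 97.0% and 98.2%. The run on chr1:69100001-70100000, over LRRC7, had 45.2% in Cl.3, 76.2% in Cl.6, 77.4% in Cl.9 against 45.3% and 45.2% in the bulk populations, so that Cl.3 was at the bulk level, as it was at or below it in several shorter runs. PMDs held 56.7%, 86.1% and 26.1% of the CpGs of this run in the clones, against 97.9% and 100% in R1 and R2. The PMD share thus did not follow the level, since Cl.3 had both a lower level and a smaller share than Cl.6. The 6 windows with the largest difference downwards were not called, the nearest being chr19:23300001-23400000 at 75.0%, 66.5% and 59.6% against 78.7% and 78.4% (edgeR adjusted p = 0.096).

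**Figure D4:**
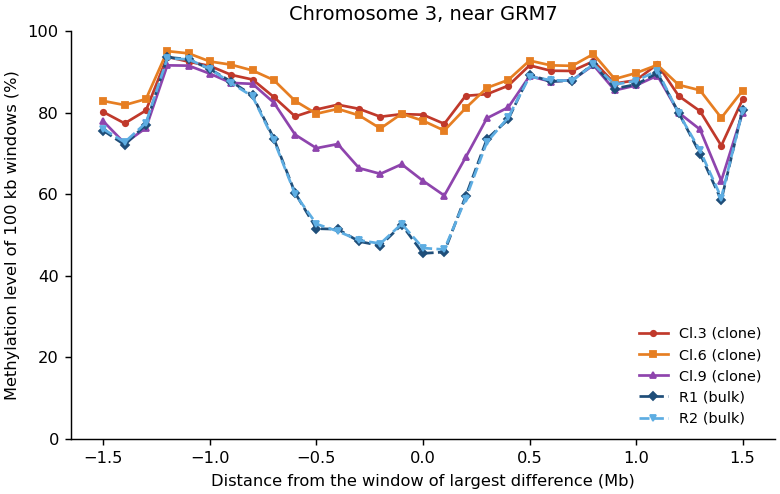
Methylation level (%) of 100 kb windows within 1.5 Mb of the called window with the largest difference, on chromosome 3, 1 line per library. At the centre R1 and R2 fall to 45.5% and 46.8% while Cl.3 and Cl.6 are at 79.5% and 78.0% and Cl.9 lies between, and 1 Mb to the left of the centre all 5 lines lie between 89.6% and 92.6%.

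Gene bodies, taken from 1 kb past the 5′ end to the 3′ end, were also mostly called higher. Of 18809 tested with edgeR, 27 were called higher in the clones (0.144%) and 1 lower (0.00532%), where 1320 (7.02%) had all clones above and 638 (3.39%) all clones below both bulk populations. The latter split was 10982 to 797 without Cl.9 and turned to 1502 to 2765 without Cl.6. As with windows, no gene body was called without R1 or without R2, 14 higher and 2 lower were called without Cl.9, and limma called 2. Of the 27, 21 had mean levels of 20% or more over the 5 libraries, 7 of the 28 called lay on chromosome 6 and 5 each on chromosomes 2 and 11.

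Among the called bodies, GUCY1A2, a subunit of soluble guanylate cyclase, was at 80.5%, 63.1% and 77.1% against 52.4% and 53.2% (edgeR adjusted p = 4.0e-05). FGF10, a fibroblast growth factor, was at 79.5%, 75.9% and 74.7% against 55.9% and 56.2% (edgeR adjusted p = 0.00017). RSPO3, a secreted activator of Wnt signalling, was at 75.7%, 78.0% and 80.2% against 57.8% and 58.2% (edgeR adjusted p = 0.00017). In these 3 the clones and the bulk populations did not overlap. RAB32 (a small GTPase) and GFRAL (the receptor for GDF15) also had large non-overlapping differences, at 83.4%, 80.2% and 78.1% against 61.2% and 60.2% and at 64.5%, 73.5% and 72.1% against 51.6% and 50.9%.

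A second set of called gene bodies had Cl.3 at or below the bulk level. The clones spread widely there, in LRRC7 with an SD of 19.3 points beside a mean difference of 18.9 points. Because edgeR moderates the spread of each body across all bodies, these calls do not show that the clones agreed. LRRC7, which encodes a scaffold protein of synapses, was at 42.6% in Cl.3, 75.0% in Cl.6 and 77.0% in Cl.9, with R1 at 45.9% and R2 at 46.1%. The sodium channel genes SCN9A and SCN3A were at 41.7% and 42.3% in Cl.3 and between 70.2% and 77.6% in Cl.6 and Cl.9, with bulk levels of 44.8% to 47.2%. BMP5, a bone morphogenetic protein, was at 42.1% in Cl.3, 78.0% and 79.8% in the other clones and 49.3% and 48.2% in R1 and R2. PLCL1 and HMGCLL1 had the same order, and these 6 were all the overlapping calls among bodies at 20% or more. In the β-globin region of chromosome 11 the bodies of HBE1, HBG2, OR51B5 and OR51I2, which overlap and share reads, were all called, and HBE1 was at 92.1%, 91.9% and 90.1% against 84.1% and 84.3%. GYPB, a red cell glycophorin with near-identical neighbours to which reads may be misassigned, was at 81.5%, 84.4% and 80.9% against 64.9% and 68.0%.

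PTH2R, a parathyroid hormone receptor, was at 84.1%, 82.1% and 81.5% against 67.7% and 67.6%, and PRL, the hormone prolactin, at 81.3%, 76.7% and 83.9% against 64.5% and 64.3%. GRM7 was at 85.1%, 85.2% and 76.6% against 69.0% and 69.3%, and NELL2 at 84.1%, 88.1% and 84.1% against 75.3% and 75.8%.

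Another 6 called bodies had mean levels under 20%. ID2, an inhibitor of helix-loop-helix factors, was at 6.78%, 10.4% and 2.95% against 2.52% and 2.78%. VGF, a neuroendocrine secreted protein, was at 1.30%, 5.48% and 2.42% against 0.856% and 1.29%. CLEC11A, GLTPD2, ODF3B and ENSG00000273047 were at 8.04% or less in all libraries. In each of the 6 Cl.6 was highest, as it was at mitochondrial CpGs, and the part of that in these calls was not tested. The 1 body called lower was ZNF91, a zinc finger gene of chromosome 19 whose protein silences retrotransposons. It was at 81.0%, 70.3% and 62.9% in the clones against 85.7% and 85.1% in the bulk cells (log2 ratio -1.19, edgeR adjusted p = 0.0022).

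Single CpGs within these bodies carried much larger differences than the body as a whole. To show the kind of CpG involved, the solo-WCGW CpG with the largest non-overlapping difference and 10 or more reads in every library was taken in 4 of the named bodies, which were chosen after their values were seen. Each is given with its surroundings on the plus strand of hg38, with the CpG and its flanking bases in capitals, and all lie in introns.
GUCY1A2: aaaccacctgattTCGTcatattgaataaa
FGF10: agaattacctggtTCGAaatagtgctgtgg
RSPO3: tcttaacatatgcTCGAtaagttggtaaga
ZNF91: tgtcaacacacaaACGTtttgtaatgtatt

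The GUCY1A2 CpG (chr11:106937887-106937916) was at 87.5%, 66.7% and 81.5% in Cl.3, Cl.6 and Cl.9, with 5.88% and 13.6% in R1 and R2, and the FGF10 CpG (chr5:44364537-44364566) at 73.3%, 94.4% and 87.5% against 18.8% and 33.3%. At the RSPO3 CpG (chr6:127127210-127127239) the clones were at 66.7%, 100% and 100% and the bulk cells at 12.5% and 30.4%. The ZNF91 CpG (chr19:23374902-23374931) ran the other way, with 27.3%, 0% and 7.69% in the clones against 84.6% and 86.4% in the bulk cells. These were picked for their size among many CpGs and rest on few reads. The largest such differences in GFRAL and RAB32 were smaller, at 55.0 and 36.1 points. Of solo-WCGW CpGs with 10 reads or more in every library, 121 of 258 in GUCY1A2, 28 of 68 in FGF10, 41 of 65 in RSPO3, 18 of 54 in GFRAL and 3 of 6 in RAB32 had all clones above both bulk populations, and in ZNF91 31 of 66 had all clones below. Over all 2099539 such CpGs 7.91% lay above and 8.34% below. The bodies had been called in these directions, so the counts describe them and are no separate support.

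**Figure D5:**
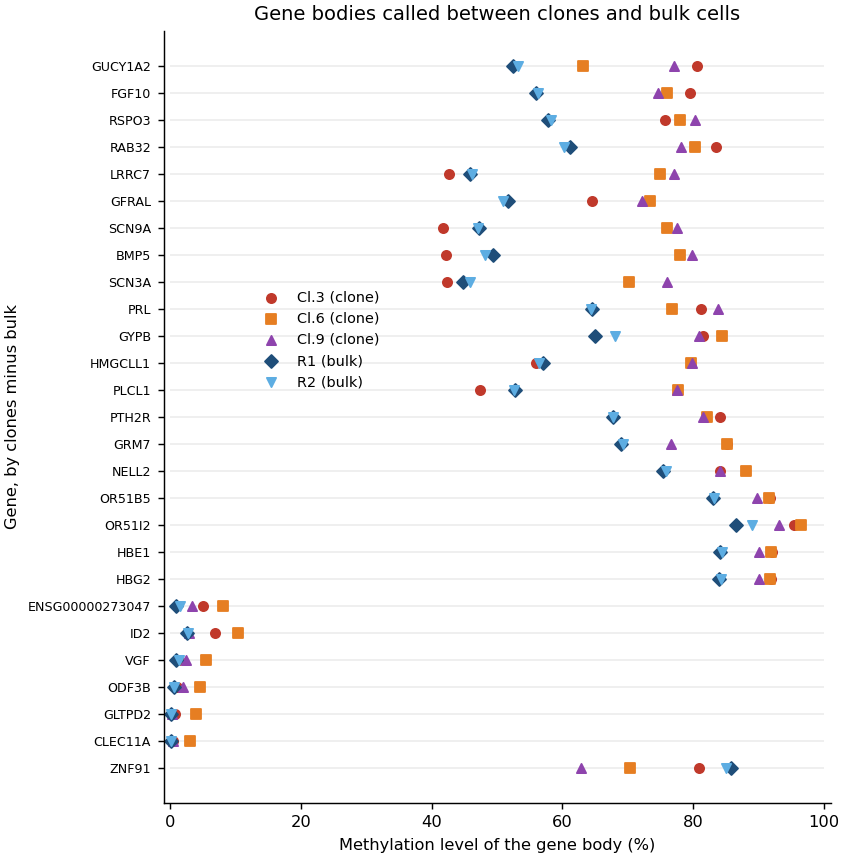
Methylation level (%) of 27 gene bodies called between clones and bulk cells, 1 row per gene ordered by the difference of means, 1 symbol per library. In most rows the 3 clones lie to the right of R1 and R2, in LRRC7, SCN9A, BMP5, SCN3A, PLCL1 and HMGCLL1 Cl.3 lies to the left of the bulk symbols, and ZNF91 at the bottom is the only gene with the clones on the left.

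Promoters of protein-coding genes, taken from 1000 bp before to 100 bp after the 5′ end, did not give any call. The 5′ end is the outermost one annotated for the gene, which need not be the start site in use in these cells. Of 18564 tested, 0 passed with edgeR in either direction (0% higher and 0% lower), with 873 at an unadjusted p under 0.05, of which 798 were higher in the clones. limma called 0 as well, with 1030 at an unadjusted p under 0.05. Promoters with all clones above both bulk populations numbered 3464 (18.7%) and those with all clones below 774 (4.17%). The median difference was 1.10 points, and the median range among clones was 6.03 points against 1.83 between R1 and R2. Leaving out Cl.6 changed the split to 4052 above and 2563 below.

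The excess upwards was strongest where promoters were unmethylated. Of 3063 promoters with a mean under 5% over the 5 libraries, 34.4% had all clones above and 0.359% all clones below. Their mean levels were 1.69%, 3.81% and 1.59% in Cl.3, Cl.6 and Cl.9 against 1.18% and 1.21% in R1 and R2. The mitochondrial CpGs had the same order, with Cl.6 highest, Cl.3 and Cl.9 next and the bulk populations lowest, and the part of this in the promoter counts was not tested. Among 5299 promoters at 80% or more, 10.6% had all clones above and 6.44% all clones below.

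The 12 promoters with the largest non-overlapping difference upwards, none of them called, had differences of 24.0 to 37.4 points. HOXA3, a homeobox gene of the HOXA cluster, led with 47.7%, 55.4% and 95.2% in Cl.3, Cl.6 and Cl.9 against 26.5% and 30.96% in R1 and R2 (log2 ratio 2.54, edgeR adjusted p = 0.92). Its lead rested on Cl.9, without which the log2 ratio of HOXA3 was 1.40, below that of GFRAL (1.79) and KIF26A (1.85). HOXD1, of another cluster of that family, was at 94.0%, 67.8% and 90.8% against 56.8% and 62.8%. BMP2, a bone morphogenetic protein, was at 78.7%, 87.8% and 78.4% against 62.5% and 52.3%, and KIF26A, of the kinesin family, at 77.3%, 76.3% and 79.9% against 52.7% and 43.5%. In ANXA2R the difference came from 1 clone, with 11.6% and 13.6% in Cl.3 and Cl.6, 73.3% in Cl.9 against 8.01% and 7.71% in the bulk cells. The GFRAL promoter, upstream of a called gene body, was at 68.9%, 56.0% and 85.9% against 38.1% and 28.3%. The others were CACNG6, OPRM1, C1orf87, ANXA9, ZNF892 and SCRN1.

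Downwards the 12 largest differences were 18.4 to 28.1 points. TLR4, a receptor for bacterial lipopolysaccharide, was at 8.16%, 7.69% and 12.4% in the clones against 32.5% and 31.5% in the bulk cells, over 5 CpGs that it shares with the overlapping gene ENSG00000285082. CADM4, a cell adhesion gene, was at 49.7%, 37.1% and 34.6% against 66.2% and 57.5%. SPTLC3, a subunit of serine palmitoyltransferase, was at 11.1%, 5.38% and 0.455% against 25.9% and 22.2%. B4GALNT4 had the largest difference, with 42.0%, 67.7% and 34.5% against 83.0% and 69.3%, but its log2 ratio was positive (0.30) when the promoter was taken as 500 bp on either side of the 5′ end. PRAMEF11, TOGARAM2, C15orf62, OR5B12, PGLYRP3, INTS6L and SOD3 completed the list. PRAMEF11 belongs to a family of near-identical copies and its reads may be misassigned.

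Clones disagreed strongly at few promoters. The range among clones was 60 points or more at 8 of 18564 promoters and 40 points or more at 76 (0.409%). At 71 of these 76 the mean of the bulk populations lay between the lowest and the highest clone, and it averaged 45.1% against 52.3% for the clones. A clone range this wide leaves little room outside it, so the 71 follow in large part from the choice. The clone farthest from the others was most often Cl.9, high at 23 and low at 24 of them. AKR7A3, an aldo-keto reductase, had the widest range, with 20.6% in Cl.3, 24.5% in Cl.6 and 96.4% in Cl.9, and 67.9% and 45.2% in R1 and R2. FAM83H was the reverse, at 88.2% and 86.9% in Cl.3 and Cl.6, 21.3% in Cl.9 against 64.6% and 65.7% in the bulk cells. At SRI, which encodes the calcium-binding protein sorcin, Cl.6 stood alone at 82.2%, with 16.5% and 21.1% in the other clones and 15.1% and 16.98% in the bulk cells. TYR (5 CpGs) and ENSG00000289761 (9 CpGs) were the other two of the 5 widest. Since clones were selected on their own range, their levels are a description.

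Gene lists were read against all promoters tested, of which 18.7% had all clones above and 4.17% all clones below both bulk populations, and no difference between a list and all promoters was tested. Among 13 promoters of Wnt antagonists 7 were at 80% or more on average and 4 under 20%. SFRP1 and DKK1, which encode secreted Wnt inhibitors and were picked as examples after their values were seen, stood at opposite ends. SFRP1 was at 94.5%, 94.1% and 91.4% in the clones against 93.4% and 92.0% in the bulk cells, and DKK1 at 0.156%, 2.75% and 0.268% against 0.325% and 0.279%. None was called, and 3 (23.1%) had all clones above and none all clones below both bulk populations, near the shares over all promoters. The 2 with the largest difference were NKD2 (23.8%, 30.2% and 26.9% against 38.2% and 26.3%) and AXIN2 (31.7%, 34.3% and 29.9% against 31.2% and 22.8%), and in both the groups overlapped.

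Of 46 genes often silenced in colorectal cancer none was called, 5 (10.9%) lay above and 5 (10.9%) below, with a median difference of 0.863 points against 1.10 over all promoters. The widest gaps were in TAC1, a tachykinin precursor, at 78.6%, 79.0% and 85.8% against 69.1% and 66.3%, and in IGFBP3, a growth factor binding protein, at 56.8%, 52.3% and 69.9% against 42.6% and 49.8%. Of 27 genes for DNA methylation enzymes and their partners 2 (7.41%) lay above and 1 (3.70%) below. At the targets of the 2 shRNAs, shown for that reason, the groups overlapped, with UHRF1 at 93.5%, 92.3% and 91.6% against 90.7% and 91.7% and DNMT1 at 35.7%, 31.2% and 22.7% against 30.5% and 23.4%. These are levels at the outermost annotated 5′ end. Which start sites are in use was not tested, so a high level does not mean a silent gene. SUV39H1, a histone methyltransferase, was at 90.3%, 93.3% and 79.7% against 79.3% and 75.2%, and DNMT3A at 45.7%, 44.4% and 40.3% against 34.3% and 36.5%.

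Promoters of innate immune and interferon genes lay above in 8 of 35 (22.9%) and below in 3 (8.57%), against 18.7% and 4.17% of all promoters. DDX60, one of those above, was at 31.2%, 44.7% and 31.9% against 24.6% and 30.6%. STING1, an adaptor of cytosolic DNA sensing, was at 70.4%, 76.0% and 94.1% against 67.3% and 70.7%, so that Cl.3 lay between the bulk populations and the groups overlapped. Of 34 germline and cancer-testis promoters 4 (11.8%) lay above and 2 (5.88%) below, with 21 at 80% or more. Imprinted genes, at which the parental copies differ, had 6 of 36 above (16.7%) and 3 below (8.33%) and a median difference of 0.133 points. Median levels over the 36 were 62.1%, 60.7% and 57.5% in the clones against 58.6% and 59.1% in R1 and R2. Of the 3 below, PEG3 and ZIM2 share all 41 of their promoter CpGs and are 1 measurement. Colon epithelium markers had 4 of 18 above (22.2%) and none below. ELF3, an epithelial transcription factor, was at 70.2% and 67.7% in Cl.3 and Cl.6 but at 25.1% in Cl.9 against 28.0% and 23.9% in R1 and R2. HNF4A was at 61.9%, 59.0% and 59.5% against 48.4% and 39.7%.

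Among larger families the promoters of ribosomal protein genes lay above in 27 of 83 (32.5%) and below in 1, and 47 of the 83 were under 20% on average, the range in which all promoters lay above most often. Olfactory receptors had 17 of 230 above (7.39%) and 36 below (15.7%), against 18.7% and 4.17% of all promoters, and a median difference of -0.941 points. Their median levels were 49.3% to 54.4%, and of all promoters at 20% to 80%, 14.8% lay above and 5.29% below. The part of level in these counts was not tested. Of olfactory receptor gene bodies 2 of 205 were called, both higher and both in the β-globin region, where 0.144% of all gene bodies were called higher. HOX genes had 8 of 39 above (20.5%) and 1 below (2.56%). Clustered protocadherins, cell adhesion genes chosen at random by single neurons, had a median range among clones of 14.6 points, against 6.03 over all promoters and 11.4 over promoters at 20% to 80%, with 8 of 52 above (15.4%) and 4 below (7.69%). PCDHAC1 was at 45.3%, 49.5% and 37.7% against 24.9% and 28.6%. Zinc finger genes of chromosome 19 lay above in 26 of 245 (10.6%) and below in 16 (6.53%). Homeobox and developmental factors outside the HOX clusters had 16 of 154 above (10.4%) and 3 below (1.95%), keratin-associated proteins 2 of 68 (2.94%) and 8 (11.8%), and cadherins 1 of 23 (4.35%) and 4 (17.4%). Median levels of keratin-associated protein and cadherin promoters also lay between 20% and 80% in every library. Of 5 neural markers none lay above or below. In none of the lists was a promoter called.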

How the data were processed

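Whole-genome bisulfite sequencing of 5 HCT116 Baseline libraries (day 14, no doxycycline) was used. The authors deposited counts of methylated reads and of all reads per CpG, made with the Meth10X pipeline per the study's methods, on hg38 per the submitters' processing notes. The treatment of duplicate reads is not given in the sources used here. The authors also called domains per library with MethylSeekR, and HMDs as the rest of the genome (bedtools 2.25.0) with a mean mC of at least 0.8. The tables held 20 further per-sample count columns that were not used.

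mC was methylated reads over all reads, at CpGs with at least 5 reads in all 5 libraries for density classes. For states, CpGs with at least 10 reads in all 5 were thinned to 10. Promoters (1000 bp upstream to 100 bp downstream), gene bodies and 100 kb windows with at least 5 CpGs and 50 reads per library were tested with edgeR 4.0.16 (quasi-likelihood test on methylated and unmethylated counts, Benjamini-Hochberg adjustment, threshold 0.05). limma 3.58.1 on log2 ratios with a pseudocount of 1 was an alternative. On simulated promoters, with the same spread in every library, edgeR recovered only part of the planted differences and limma recovered none. In the data the median promoter range was 6.03 points among clones and 1.83 between R1 and R2. The simulation therefore does not give the power of these tests, and a lack of calls does not show a lack of differences. Single values were compared with an exact two-sided permutation test. R 4.3.3 and Python 3.11.15 (numpy 2.4.6, scipy 1.17.1, pandas 2.3.3, matplotlib 3.10.9) were used.

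Named were the 12 promoters with the largest non-overlapping difference each way, the 6 windows and gene bodies each way, the 5 promoters of widest clone range, and in each gene list called members or else the 2 largest differences. Members and lists were chosen with earlier results of these data known. The paper counts R1 and R2 as 2 bulk populations, and nothing in the labels says that they are separate cultures. The p-values rest on the spread between these samples only, which may be technical. edgeR also moderates the spread of each feature across all features. A small edgeR p-value therefore does not show that the clones agreed. Median depth was 11 to 20 reads per CpG, and intervals of shares cover counting error only. Some items are not reported here.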

Additional observations from a re-analysis of the deposited data

Results flagged for a closer look

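At 435 CpGs of the mitochondrial genome, which are outside the chromosomes tested, 0.425% of reads were methylated in Cl.3, 2.50% in Cl.6 and 0.375% in Cl.9, each above the bulk populations at 0.295% and 0.287%. The 95% Wilson interval was 2.47% to 2.52% in Cl.6 and did not overlap that of any other library.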

How the results depend on the processing

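No paired analysis was possible because the clones and the bulk populations are separate cell populations, with no pairing between them at Baseline. The difference in total level changed sign, to -0.0356 points as a mean per CpG over CpGs with at least 5 reads in all 5 libraries, which changes both the averaging and the CpGs used, and ranged from -0.401 to 2.01 points when single libraries were left out. The same ranges were -1.01 to 0.774 points at low-density, -0.223 to 0.965 at high-density and -1.37 to 0.937 at solo-WCGW CpGs, and -36.8 to 26.2 Mb for UMR length. PMD length differed by -181 Mb with each base pair counted once and by -479 to -217 Mb without single libraries. The deficit of intermediate CpGs kept its sign, at -0.270 points for 4 to 6 of 10 reads, -3.22 points without thinning and -2.30 to -1.78 points without single libraries. On chromosome X it was -6.84 points when thinned to 5 reads, an alternative chosen after seeing the data. The means for clone-clone, clone-bulk and bulk-bulk pairs kept their order, at 6.73%, 3.79% and 0.637% for differences of 0.5 and 12.1%, 7.71% and 1.05% without thinning. With a clone range of 40 points or more the bulk level was 56.0% at CpGs and 45.1% at promoters.

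Windows called higher numbered 0 to 187 and lower 0 to 8 without single libraries, with 0 higher without R1, 0 without R2 and 86 without Cl.9. Without R1 or R2 the spread comes from the clones alone. The 169 windows kept median log2 ratios of 1.22 and 1.23. They had been chosen with every library in, and R1 and R2 nearly coincided, so these ratios could hardly move and are no support for the calls. Called windows numbered 177 with limma, of which 147 were shared, 3 after centring and 0 at 20 kb, and the cause was not tested. Gene bodies called higher numbered 0 to 27 and lower 0 to 2 without single libraries, and 2 and 0 with limma. Promoters gave 0 calls under all alternatives run. Non-overlapping promoters, counted without single libraries after seeing the data, numbered 4052 to 7692 above and 1131 to 2563 below, a count that grows with fewer libraries by construction.

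With promoters 500 bp on either side the log2 ratio changed sign at B4GALNT4 (0.30), ENSG00000289761 (0.0636), NKD2 (0.12), CD2 (0.00491) and SYN1 (-1.46, and -0.0570 after centring). Leaving out single libraries gave both signs at 8 named promoters, none of them called, with ranges of -2.15 to 0.78 at AKR7A3, -0.142 to 2.02 at TYR, -0.563 to 1.91 at FAM83H, -1.14 to 1.05 at ENSG00000289761, -0.749 to 0.0426 at NKD2, -0.171 to 1.13 at SNAP25, -0.276 to 0.374 at SYN1 and -1.15 to 0.0179 at CDH19. CpGs with few reads limit single-CpG values, most of all on chromosome X.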
